A study of Mus musculus with 44 samples.

Results

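The regions described here are 2409 stretches of the mouse genome that carried no peak of H3K27me3 in normal hepatocytes and carried one in late reprogramming cells. Peaks of the 11 H3K27me3 libraries were merged where they overlapped, which gave 54582 regions. A region was kept when neither of the 2 hepatocyte libraries had a peak in it and at least 2 of the 3 late libraries had one. The regions were thus chosen by their H3K27me3 peaks in these 5 libraries, so its absence from hepatocytes and its presence in late cells are given as a description without a test. The tests are on the 3 other marks, and on H3K27me3 in the 6 libraries that the choice did not use.

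All libraries came from Rosa26-LSL-Cas9-EGFP mice, labelled wild type, that received an adeno-associated virus (AAV8-TBG-Cre). The TBG promoter drives Cre in hepatocytes, so EGFP marks cells of hepatocyte origin. Hepatocytes (Hep, n = 2) came from virus-injected mice on a normal diet and were purified on a Percoll gradient. The other cells came from virus-injected mice fed DDC, a toxin that injures bile ducts, and were sorted as early (EGFP+ CD24-, n = 2), intermediate (EGFP+ CD24+ EPCAM-, n = 2), late (EGFP+ CD24+ EPCAM+, n = 3) and biliary epithelial cells (BEC, EGFP- EPCAM+, n = 2). Hep therefore differed from every other stage in diet and in purification as well as in stage, and these cannot be told apart. Each mouse received 5e11 genome copies of virus. DDC was given at 0.1% for 8 to 9 weeks, begun 1 week after the virus, alike for all sorted groups. Early, intermediate and late thus name sorted cells and not times on the diet. Each stage was profiled for H3K27me3, H3K4me3, H3K27ac and H3K4me1, which makes 44 libraries of lightly fixed cells.

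H3K27me3 is written by Polycomb repressive complex 2 and marks genes that are held silent, many of them developmental regulators with CpG-rich promoters. H3K4me3 marks promoters in use, H3K27ac marks active promoters and enhancers, and H3K4me1 marks enhancers more widely. H3K27ac and H3K27me3 occupy the same lysine, so a single histone tail cannot hold both. In adult hepatocytes the developmental regulators of other lineages are classical Polycomb targets, and metabolic genes are classical carriers of the active marks.

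The promoters of 6 genes show what the results turn on: Hal, Prodh2, Chst13 and Gabbr2 lay at regions where hepatocytes carried H3K4me3 and late cells did not keep it in full, Trp53i11 lay where H3K4me3 was higher in late cells, and Sox2 is a classical Polycomb target. Each sequence is the 250 bases before the gene's start, written 5′ to 3′ on the gene's strand, from RefSeq on GRCm38.p6 (mm10), with CpG sites in capitals.
Hal, chr10:93488518-93488767, plus strand: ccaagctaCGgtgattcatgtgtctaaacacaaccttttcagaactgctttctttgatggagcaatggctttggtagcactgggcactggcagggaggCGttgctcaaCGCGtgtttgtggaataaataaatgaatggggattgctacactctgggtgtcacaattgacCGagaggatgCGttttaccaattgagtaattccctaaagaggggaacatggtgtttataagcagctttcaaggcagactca
Prodh2, chr7:30493408-30493657, plus strand: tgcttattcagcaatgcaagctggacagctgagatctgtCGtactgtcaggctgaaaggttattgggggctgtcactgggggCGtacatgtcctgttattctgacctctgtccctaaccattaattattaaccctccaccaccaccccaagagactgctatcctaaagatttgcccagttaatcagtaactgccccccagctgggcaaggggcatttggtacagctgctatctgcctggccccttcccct
Chst13, chr6:90325186-90325435, minus strand: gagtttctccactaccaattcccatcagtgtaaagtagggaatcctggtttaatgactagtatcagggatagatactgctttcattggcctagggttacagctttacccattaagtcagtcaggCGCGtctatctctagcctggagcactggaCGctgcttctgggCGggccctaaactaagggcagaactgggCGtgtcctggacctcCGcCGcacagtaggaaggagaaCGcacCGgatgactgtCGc
Gabbr2, chr4:46991715-46991964, minus strand: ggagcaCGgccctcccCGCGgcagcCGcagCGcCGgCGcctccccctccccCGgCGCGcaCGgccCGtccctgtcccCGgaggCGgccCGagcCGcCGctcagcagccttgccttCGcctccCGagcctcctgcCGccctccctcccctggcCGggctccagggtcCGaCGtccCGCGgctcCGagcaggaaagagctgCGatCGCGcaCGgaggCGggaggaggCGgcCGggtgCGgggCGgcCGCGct
Sox2, chr3:34649745-34649994, plus strand: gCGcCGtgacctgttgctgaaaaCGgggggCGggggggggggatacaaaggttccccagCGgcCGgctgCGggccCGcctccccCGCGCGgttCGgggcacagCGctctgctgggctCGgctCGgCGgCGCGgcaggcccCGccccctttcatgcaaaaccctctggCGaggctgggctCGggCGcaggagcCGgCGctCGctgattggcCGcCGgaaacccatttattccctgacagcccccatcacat
Trp53i11, chr2:93187298-93187547, plus strand: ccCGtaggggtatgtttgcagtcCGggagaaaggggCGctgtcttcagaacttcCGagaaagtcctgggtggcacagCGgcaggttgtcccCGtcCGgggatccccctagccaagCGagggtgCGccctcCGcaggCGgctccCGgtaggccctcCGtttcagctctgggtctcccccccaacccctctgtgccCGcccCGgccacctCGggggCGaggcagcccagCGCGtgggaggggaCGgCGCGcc
The Hal and Prodh2 stretches hold 6 and 2 CpG sites, and that of Chst13 holds 10. Trp53i11 has 22, Sox2 27 and Gabbr2 37, so the 6 promoters run from CpG-poor to CpG-dense. The regions share 183, 156 and 173 bp with the Chst13, Sox2 and Trp53i11 stretches and lie 222, 466 and 562 bp from those of Hal, Prodh2 and Gabbr2.

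Over the 360 genes with a start within 1000 bp of a region and a RefSeq promoter, the median was 16 CpG sites in 300 bases, with an observed to expected ratio of 0.614. The medians over 17492 promoters were 14 and 0.589. The 38 promoters whose region carried H3K4me3 in both Hep libraries had a median ratio of 0.642, against 0.799 over the 8607 promoters with H3K4me3 in both.

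The regions were short. Their median length was 294 bp (118 to 1196 bp), against 423 bp for the 3151 regions that had H3K27me3 in Hep and in at least 2 late libraries, called kept regions below. Within each late list, the regions' peaks stood at median score percentiles of 57.6, 53.6 and 61.0, and those of kept regions at 69.9, 68.0 and 79.1. The regions made up 13.8%, 19.7% and 14.4% of the peaks of late replicates 1, 2 and 3. Only 446 regions had a peak in 3 of 3 late libraries, with a median length of 351 bp. The 1963 with a peak in 2 of 3, just inside the rule, had a median length of 282 bp and a median of 108 bp covered per late library, and the 17728 regions just outside it, with 1 of 3, had 135 bp and 40.7 bp. The number moved when libraries were left out: the rule gave 4374 regions without Hep replicate 2 and 2571 without Hep replicate 1. Without late replicate 1, 2 or 3, where a peak in both others was then required, it gave 1306, 1265 and 730. The same rule with early, intermediate or BEC in place of Hep gave 2867, 1403 and 3881 regions.

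The libraries differed in how much was called. H3K27me3 lists held 4492 and 16547 peaks in Hep, 6195 and 7610 in early, 16597 and 5792 in intermediate, 11606, 8123 and 15086 in late and 5737 and 2343 in BEC. Late replicate 1 stood apart by its short peaks, with a median of 58 bp against 147.5 to 249 bp in the other 10. Read depth was unknown, so no interval for a single level was given. H3K4me3 at gene starts followed the labels in part: of 6 hepatocyte markers 4 had it in Hep and 1 to 2 in BEC, and of the 6 biliary markers 2 to 3 had it in Hep and 6 in BEC. Ttr had no peak at its start in Hep or late, and Alb, against its label as a hepatocyte marker, had none in Hep and one in every late and BEC library. No macrophage or neutrophil marker had one in any library, at most 1 of 12 endothelial and 1 of 10 lymphocyte markers did, and 1 to 3 of 12 stellate and fibroblast markers did.

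In the 6 libraries not used by the rule, H3K27me3 was found at 15.2% and 19.9% of the regions in early cells, 51.7% and 21.0% in intermediate cells and 19.1% and 6.97% in BEC. Intermediate replicate 1 stood far above its partner, and every other unused library lay below 22%. The stage means were 17.6% ± 3.29 (SD, n = 2) in early, 36.4% ± 21.7 (SD, n = 2) in intermediate and 13.0% ± 8.57 (SD, n = 2) in BEC. Over all 54582 merged regions the same means were 12.4% ± 1.80, 20.0% ± 13.7 and 7.33% ± 4.32 (SD, n = 2 each). The regions lay above the general level in each stage, and the gap between the 2 intermediate libraries was present in both sets. All merged regions include those listed in 1 library alone and were shorter, with a median of 187 bp against 294 bp. The part of this in the difference was not tested. Over kept regions, defined above, the means were higher, at 48.5% ± 4.51, 67.9% ± 23.1 and 23.2% ± 13.3 (SD, n = 2 each).

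Of the 2409 regions, 758 (31.5%) had no H3K27me3 peak in any of these 6 libraries and 14 had one in all 6. A peak in at least 1 early library was found at 28.1% of the regions, in at least 1 intermediate library at 57.5% and in at least 1 BEC library at 22.5%. Over all merged regions these shares were 20.5%, 34.7% and 13.3%, and over kept regions 64.0%, 88.0% and 36.1%. Only 368 regions (15.3%) had a peak in both intermediate libraries, 169 in both early and 86 in both BEC libraries. H3K27me3 was compared between early, intermediate and BEC with limma on log2(bp + 100), where bp is the number of bases of a region under peaks. Of 29390 regions tested, 0 passed an adjusted p of 0.05 in any of the 3 contrasts (background 0%), and so did 0 of the 1649 gained regions among them. An unadjusted p under 0.05 was reached by 150, 120 and 170 of the 1649 for intermediate against early, BEC against early and BEC against intermediate. Among all 29390 tested it was reached by 1404, 1920 and 1681. With the replicate number as a block, 6 of the 1649 gained regions passed for BEC against early, and 230 of all 29390.

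**Figure D1:**
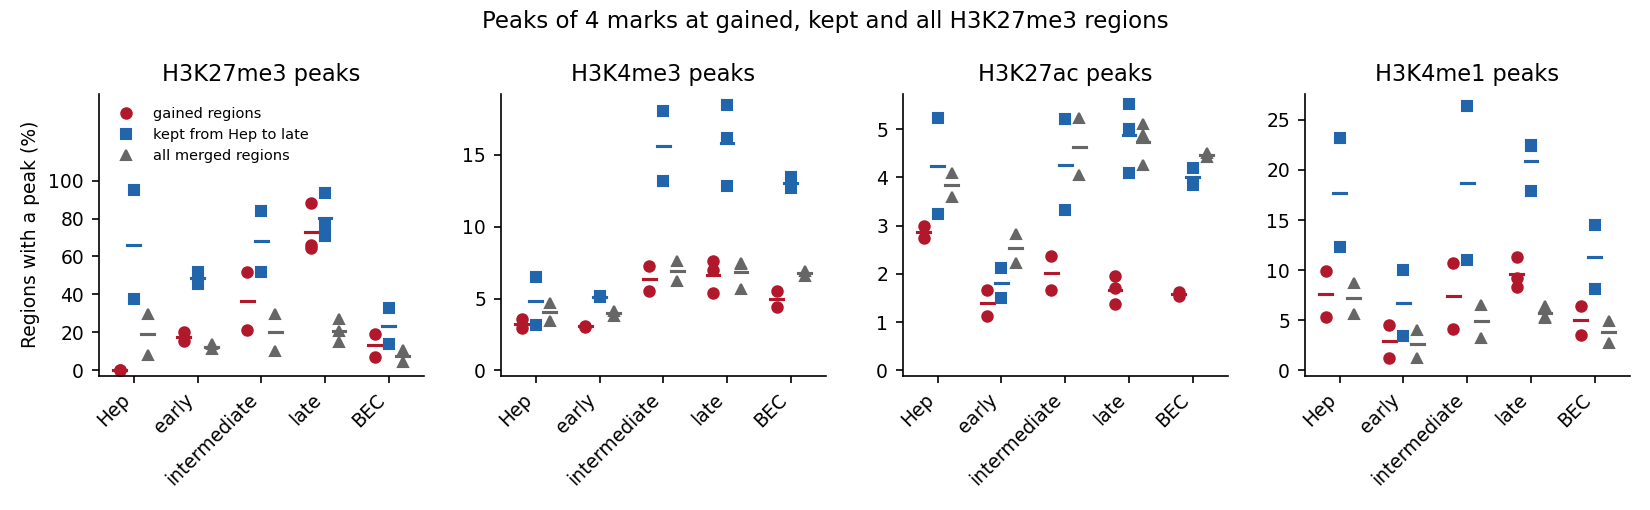
Percent of the 2409 gained regions, the 3151 kept regions and all 54582 merged regions with a peak of each of the 4 marks, by stage; points are libraries and short lines stage means. For H3K27me3, gained regions in Hep stand at 0 and late at 64.3% to 88.2% because the rule chose the regions so; intermediate replicate 1, at 51.7%, stands apart from replicate 2 at 21.0%.

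Many of the regions lay near places that already had H3K27me3 in Hep. The median distance to the nearest Hep peak was 9048 bp, and 435 regions (18.1%) lay within 1000 bp of one, 1257 (52.2%) within 10000 bp and 2017 (83.7%) within 50000 bp. The other 33971 regions without H3K27me3 in Hep had a median distance of 16740 bp, with 11.3%, 37.8% and 74.6% within the same limits. A group of 392 regions (16.3%) lay over 50000 bp from any Hep peak. These are described together with the active marks below.

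Of the regions, 485 (20.1%) lay within 1000 bp of the start of a protein-coding gene, 785 (32.6%) elsewhere inside a gene and 1139 (47.3%) outside genes. The share at starts was 13.2% over all merged regions and 33.8% over kept regions. The gained regions formed 2143 loci when those within 10000 bp were joined, and 220 loci held 2 or more. The locus with the most was that of Gata4, a zinc-finger factor of endoderm and liver development, with 6 regions over 43685 bp (chr14:63227998-63271682). Summed over these 6 regions, H3K27me3 peaks covered 494 and 374 bp in early, 428 and 386 bp in intermediate, 455, 1310 and 527 bp in late and 546 and 0 bp in BEC. Early, intermediate and 1 of the 2 BEC libraries thus held amounts like those of late replicates 1 and 3, and late replicate 2 was highest. The span was not free of the mark in hepatocytes: Hep peaks of H3K27me3 covered 528 bp of it, outside these regions. Dlk1, a paternally expressed gene of the fetal liver (chr12:109436372-109453903), and the transcription factor gene Prdm6 on chromosome 18 had 5 regions each, as did a locus at Adamtsl5 and Plk5 (chr10:80341757-80357309). The homeobox genes Lhx5 and Six3 and the neuronal RNA-binding protein gene Elavl2 had 4 each. Between the regions of these loci, Hep peaks of H3K27me3 covered 166 bp at Dlk1, 423 bp at Prdm6 and 369 bp at Adamtsl5. They covered 225 bp at Six3 and 0 bp at Lhx5 and Elavl2.

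A start within 1000 bp of a gained region was found for 464 of 21887 protein-coding genes (2.12%). Developmental Polycomb targets counted 9 of 72 (12.5%), namely the homeobox genes Dlx6, Hoxc13, Lhx9, Pitx1 and Vax1, the paired-box genes Pax2 and Pax6, the pluripotency factor Sox2 and the cell cycle inhibitor gene Cdkn2a. Kept regions lay at 8 of the same 72, Sox2 among them, and at 982 of all 21887 genes. None of 29 hepatocyte function genes, 20 bile acid and xenobiotic genes, 34 Polycomb subunits and partners, 22 YAP targets, 19 cell cycle genes, 19 TGF-beta and EMT genes or 20 housekeeping genes had one. A single gene had one in each of the lists of hepatocyte transcription factors (Gata4 of 20), biliary markers (Krt19 of 28), biliary and epithelial transcription factors (Grhl2 of 14), the Notch pathway (Dll4 of 16) and Wnt and pericentral genes (Lgr5 of 16). Among markers of other cells, Col1a2 of 12 stellate, Kdr of 12 endothelial and C1qa of 11 macrophage genes had one, and 0 of 10 lymphocyte and 0 of 10 neutrophil genes did.

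Within 2500 bp of their promoters, 27 of the 29 hepatocyte function genes and 20 of 20 bile acid and xenobiotic genes had no H3K27me3 peak in any late library. Among hepatocyte transcription factors 16 of 20 had none, and Hnf4a, Foxa2, Cebpa and Prox1 were at 0 bp in all 11 libraries. Of the 72 developmental targets, 30 had a peak in at least 2 late libraries and 12 in both Hep libraries. These thresholds are unlike, since late has 3 libraries and Hep 2. No late library had a peak at 13 of the 72, and neither Hep library at 35. Within 1000 bp of the promoter, the share by library was 8.33% and 30.6% in Hep and 30.6%, 11.1% and 43.1% in late. Over all 21887 genes, 84.3% had no peak in any late library, 8.46% had one in at least 2 and 5.99% in both Hep libraries, so the counts for hepatocyte function genes lie near the general level.

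Developmental targets gained short stretches. At Hoxc13, a homeobox gene of the HoxC cluster, peaks covered 87, 299 and 176 bp in late replicates 1, 2 and 3, and the nearest Hep peak lay 41562 bp away. Pax2, a regulator of kidney development, had 57, 203 and 118 bp. At Sox2 the values were 136 and 151 bp in intermediate and 50, 0 and 128 bp in late, and a Hep peak of H3K27me3 lay 216 bp away. Hoxc13 and Pax2 thus carried the mark in each late library and Sox2 in 2 of them. At Cdkn2a, which encodes p16 and p19ARF and is silenced by Polycomb in dividing cells, the region chr4:89282003-89282506 had 504 bp in intermediate replicate 1 and 71, 0 and 413 bp in late. The neighbouring Cdkn2b had H3K27me3 only in Hep replicate 2, at 134 bp, and is not among the regions.

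The widest gains at gene starts among regions with a peak in 3 of 3 late libraries included genes of several functions. At Pde1a, a phosphodiesterase of cyclic nucleotides (chr2:80128777-80129346), H3K27me3 covered 221 and 433 bp in early, 238 and 274 bp in intermediate, 235, 495 and 268 bp in late and 198 and 232 bp in BEC. At Casr, the calcium-sensing receptor (chr16:36561177-36561945), the values were 195 and 182 bp, 330 and 249 bp, 93, 451 and 476 bp, and 183 and 0 bp in the same order. Both genes carried the mark in early and intermediate cells as well as in late cells, with ranges that overlapped. B3galt5, a galactosyltransferase, had none in early or BEC, 325 and 210 bp in intermediate and 210, 314 and 471 bp in late. Sv2b, a synaptic vesicle protein, Gpr101, an orphan receptor, Trim58, a ubiquitin ligase, and Wdr86 were also among them. Away from starts, the widest region lay near Meis3 (chr7:16158743-16159773), with 125, 802 and 623 bp in late. A region 29611 bp from the start of Neurog1, a neurogenic factor (chr13:56221463-56222569), had 721 and 185 bp in early, 508 and 262 bp in intermediate, 230, 521 and 532 bp in late and 224 and 0 bp in BEC.

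Few of the regions had carried an active mark in Hep. H3K4me3 was present in both Hep libraries at 67 regions (2.78%, 95% exact Clopper-Pearson interval 2.16 to 3.52%), H3K27ac at 56 (2.32%, 1.76 to 3.01%) and H3K4me1 at 115 (4.77%, 3.96 to 5.70%). These intervals cover counting error only, and neighbouring regions are not independent. A peak of the mark in only 1 Hep library was found at 23, 26 and 137 regions. None of the 3 marks had a peak in either Hep library at 2141 regions (88.9%). Over all merged regions, H3K4me3, H3K27ac and H3K4me1 stood in both Hep libraries at 3.29%, 3.29% and 5.22%, and over kept regions at 2.98%, 3.01% and 11.2%. H3K4me3 and H3K27ac occurred together at 41 of the gained regions, H3K4me3 with no H3K27ac at 17 and H3K27ac with no H3K4me3 at 11. Gene starts lay within 1000 bp of 48 of the 67 regions with H3K4me3 and of 29 of the 56 with H3K27ac.

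Over the stages, H3K27ac was found at 2.86% ± 0.176 (SD, n = 2) of the gained regions in Hep, 1.39% ± 0.382 (SD, n = 2) in early, 2.01% ± 0.499 (SD, n = 2) in intermediate, 1.67% ± 0.292 (SD, n = 3) in late and 1.58% ± 0.0587 (SD, n = 2) in BEC. Both Hep libraries lay above every other library for this mark. Over all merged regions the share was 3.85% ± 0.343 (SD, n = 2) in Hep and 4.75% ± 0.437 (SD, n = 3) in late. H3K4me3 went the other way, from 3.26% ± 0.440 (SD, n = 2) of the gained regions in Hep to 6.67% ± 1.14 (SD, n = 3) in late, and from 4.06% ± 0.858 to 6.84% ± 1.02 over all regions. These shares were not tested.

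The share with active marks in Hep was highest in the regions farthest from the H3K27me3 already there. It was 0.920% within 1000 bp, 0.973% from there to 10000 bp, 2.24% to 50000 bp and 9.69% (95% exact interval 6.95 to 13.1%) beyond for H3K4me3. For H3K27ac it was 0.230%, 0.730%, 2.89% and 6.89% (4.59 to 9.86%), and for H3K4me1 2.99%, 2.55%, 4.87% and 11.2% (8.28 to 14.8%). The 392 regions beyond 50000 bp thus held 38 of the 67 regions with H3K4me3 and 27 of the 56 with H3K27ac. Regions without H3K27me3 in Hep and with it in at most 1 late library had 2.60%, 2.85% and 2.93% beyond 50000 bp. The 2 sets are not matched, and any shared base counted as overlap. Over all distances, 8.20% of the comparison regions lay at gene starts, against 20.1% of gained regions. Comparison regions with 1 late peak had a median length of 135 bp, against 294 bp. The part of length and place in the difference was not tested. The share of gained regions at gene starts was 37.5%, 15.7%, 14.3% and 21.4% over the 4 distance classes. The part of place in the order over distance was not tested either.

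**Figure D2:**
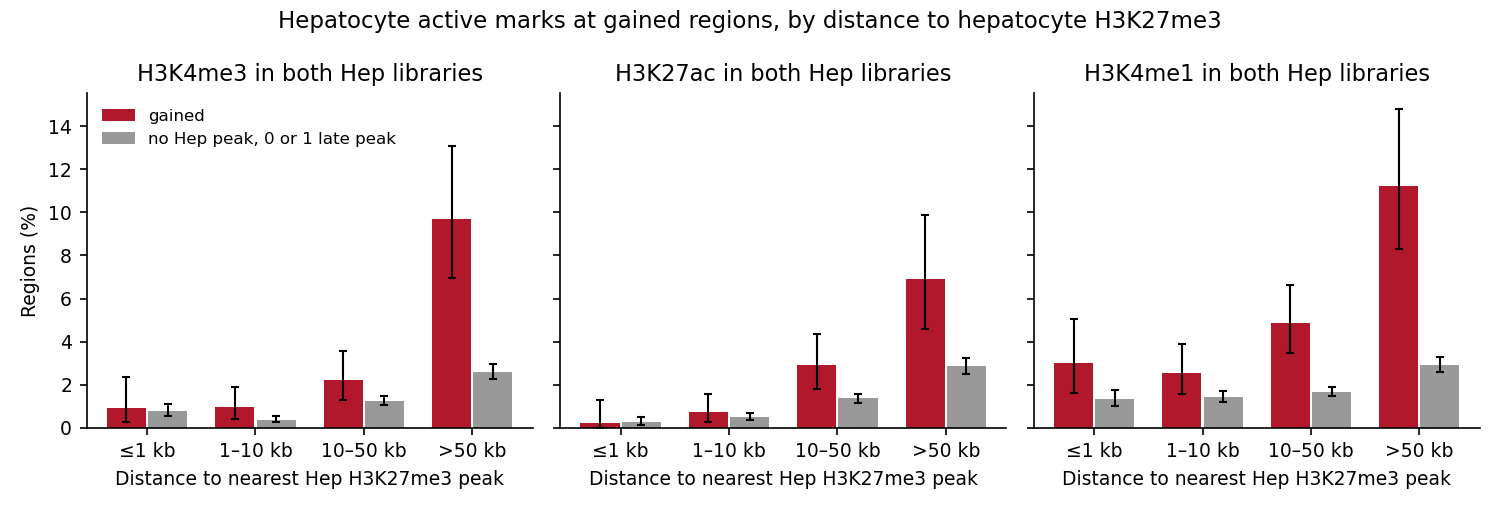
Percent of regions with H3K4me3, H3K27ac or H3K4me1 in both Hep libraries, by distance in bp to the nearest Hep peak of H3K27me3, for gained regions and for regions without H3K27me3 in Hep and with it in at most 1 late library. Columns are shares and error bars are 95% exact intervals; gained regions beyond 50000 bp stand highest, at 9.69%, 6.89% and 11.2%.

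H3K27ac was absent from late cells at many of the regions that had it in Hep. Of the 56 with H3K27ac in both Hep libraries, 31 (55.4%) had it in no late library and 12 in all 3. Of 473 regions with H3K27ac in both Hep libraries, no H3K27me3 in Hep and H3K27me3 in at most 1 late library, 27.1% had it in no late library, and of 95 kept regions 16.8%. By library the 56 regions kept H3K27ac at 24 and 32 in early, 29 and 24 in intermediate, 20, 20 and 16 in late and 13 and 14 in BEC. H3K27me3 peaks at the same 56 numbered 2 and 2 in early, 22 and 10 in intermediate, 43, 24 and 50 in late and 13 and 5 in BEC. Since these regions were picked for H3K27ac in both Hep libraries, no other stage could exceed Hep, and the order of stages is a description.

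H3K4me3 was kept more widely. Of the 67 regions, 22.4% had it in no late library and 41.8% in all 3, against 11.9% and 63.6% of 445 regions with H3K27me3 in at most 1 late library and 2.13% and 78.7% of 94 kept regions. It was listed at 50 and 53 of the 67 in early, 45 and 53 in intermediate, 33, 48 and 40 in late and 26 and 26 in BEC. H3K4me1 was missing from all late libraries at 33.0% of 115 regions, against 38.9% of 642 comparison regions. Peaks of both kinds at a region come from different libraries and do not show both marks in the same cells.

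**Figure D3:**
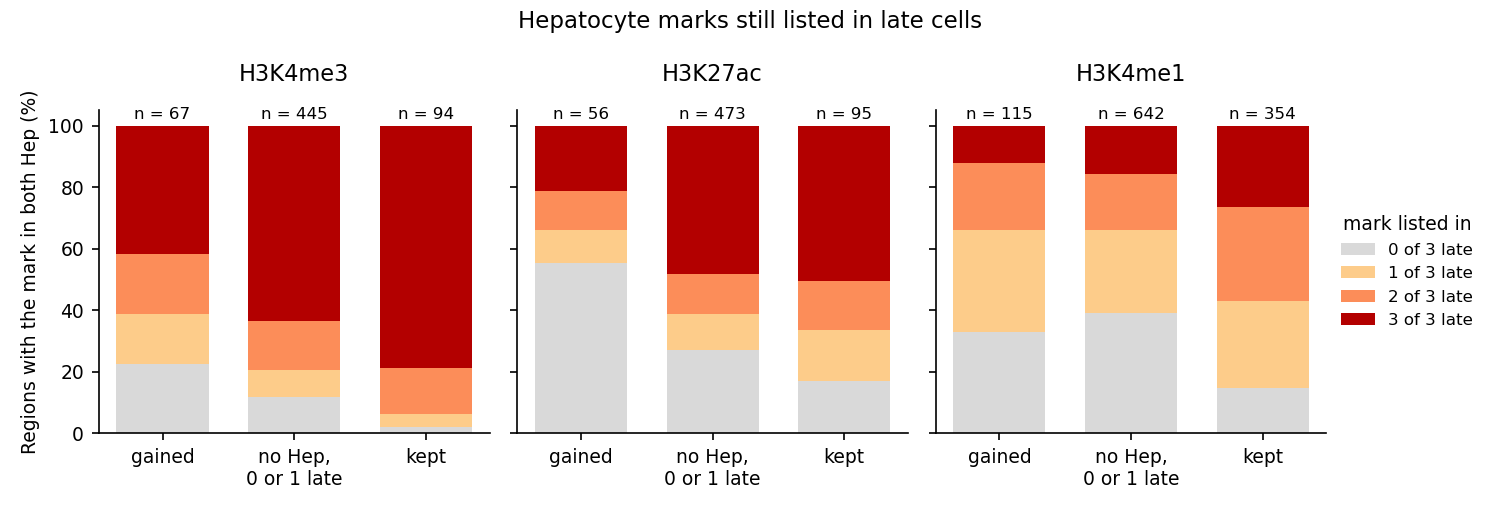
Percent of regions with H3K4me3, H3K27ac or H3K4me1 in both Hep libraries that had the mark in 0, 1, 2 or 3 late libraries, for gained regions, for regions with no H3K27me3 in Hep and at most 1 late library, and for kept regions. H3K27ac was in 0 late libraries at 55.4% of the 56 gained regions.

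Late and Hep were compared at each region extended by 1000 bp on both sides, with limma on log2(bp + 100) over all regions with peaks of the mark in at least 2 libraries. The p-values measure the spread between these samples, since the labels do not say that they came from separate animals. Values were not scaled between libraries, and for each mark every late list covered fewer bases than either Hep list. How much of a lower value at a single region comes from this was not tested. For H3K27ac, 140 gained regions passed the filter, of which 68 were called, 62 lower in late cells and 6 higher, against a background of 33% called, 16.8% lower and 16.1% higher, among 5147 regions tested. For H3K4me3, 412 passed, of which 34 were called, 21 lower and 13 higher, against 11.6%, 2.64% and 8.99% among 7400. For H3K4me1, 649 passed, of which 91 were called, 81 lower and 10 higher, against 21.3%, 19.7% and 1.59% among 10183. In each of these called regions the Hep and late values did not overlap. A region with peaks in the 2 Hep libraries and in no other entered through Hep alone and had to differ: this holds for 18 of the 62 lower for H3K27ac, 5 of the 21 for H3K4me3 and 19 of the 81 for H3K4me1. Among all regions tested it holds for 177 of 867, 42 of 195 and 411 of 2011. The counts are therefore a description of the regions that passed.

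The median fitted difference over the 140 regions was -1.13 for H3K27ac, against 0.06 over all tested. These medians depend on the offset, since many regions stood at 0 bp in one stage, and were -2.18 with 10 bp and -0.22 with 1000 bp. For H3K4me3 the medians were 0.46 and 0.53. Over all regions tested the H3K4me1 median was -0.41, and 0.08 after quantile normalization. With that scaling 16 gained regions were called lower and 10 higher for H3K4me1, so most of the lower calls were lost. For H3K27ac 62 were called lower and 3 higher with it, and 35 lower and 3 higher with each peak set to one width. The H3K4me3 split between lower and higher turned with the scaling, with 53 lower and 11 higher after quantile normalization, which moved the median of all regions from 0.53 to -0.09, and 9 lower and 51 higher with each peak set to one width. The H3K4me3 count also rested on single libraries: it was 0 without either Hep replicate and 93 without late replicate 1, 15 without late replicate 2 and 13 without late replicate 3. The H3K27ac count was 28 without Hep replicate 1 and 22 without Hep replicate 2, and 61 to 69 without any one of the others. The H3K4me1 count was 0 without either Hep replicate.

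A difference in H3K27ac from Hep was also called in early cells. Against Hep, 37 of the 140 regions were lower in early cells and 0 higher, against a background of 11.1% lower and 2.08% higher. Intermediate differed from early at 7 of the 140 (background 10.5%), and late from intermediate at 2 (background 1.13%). BEC differed from Hep at 74 (background 39%) and from late at 1 (background 5.23%). The comparisons of early, late and BEC with Hep share the 2 Hep libraries. Of the 140 regions, 18 had peaks in the 2 Hep libraries and in no other, against 180 of all 5147 tested. These entered through Hep alone and stood at 0 bp in early and BEC as well. The counts against Hep are therefore a description of the regions that passed.

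**Figure D4:**
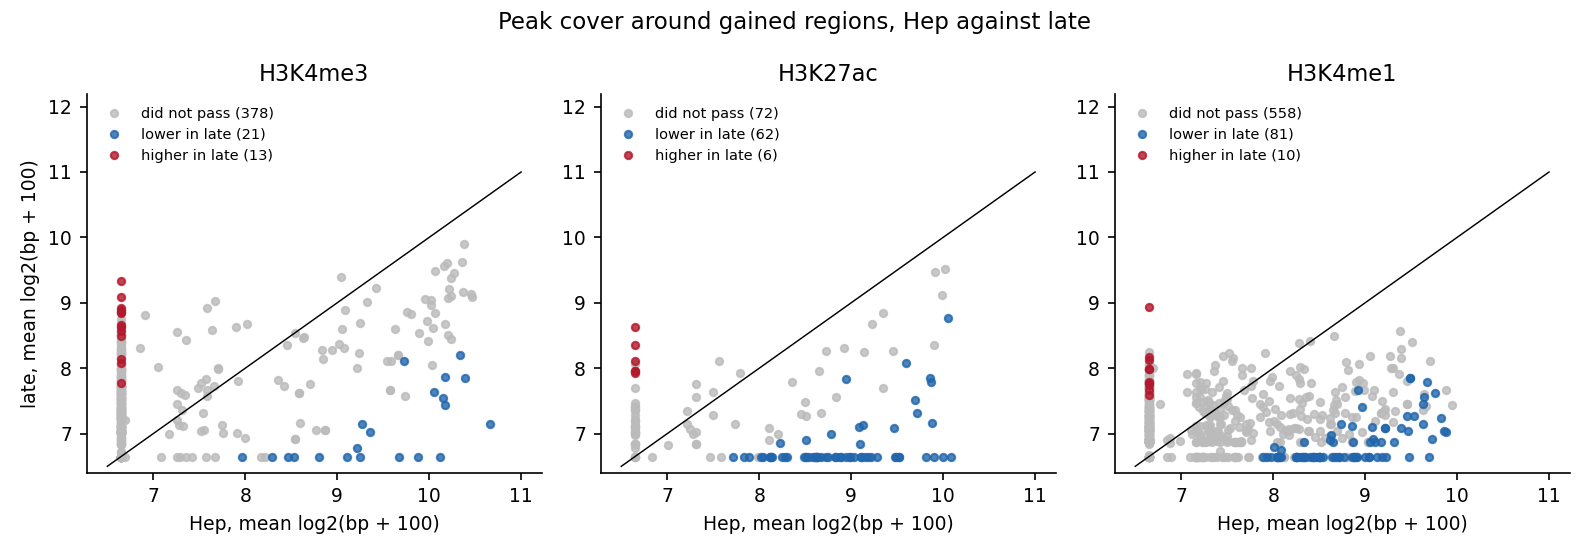
Mean log2(bp + 100) of H3K4me3, H3K27ac and H3K4me1 in late cells against Hep at gained regions, each extended by 1000 bp; each point is 1 region, coloured where limma called it lower or higher in late, and the line marks equal values. For H3K27ac 62 of the called regions lie below the diagonal and 6 above it.

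At Hal and Prodh2, enzymes of amino acid breakdown, both active marks were lower in late cells. The region at Hal, histidine ammonia-lyase (chr10:93488990-93489327), had H3K27me3 over 0, 182 and 338 bp in late and none in other stages. H3K4me3 around it covered 905 and 1129 bp in Hep, 294 and 835 bp in early, 142 and 168 bp in intermediate and 0 bp in each late and BEC library (limma BH-adjusted p = 0.00436 for late against Hep). H3K27ac covered 1048 and 930 bp in Hep, 195 and 123 bp in early, 0 and 106 bp in intermediate and 0 bp in late and BEC (limma BH-adjusted p = 0.00018). Late and BEC were listed at 0 for both marks, and early and intermediate lay between them and Hep, apart from the intermediate library without H3K27ac. No fold is given against stages listed at 0.

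Prodh2, hydroxyproline dehydrogenase (chr7:30494124-30494658), gained H3K27me3 over 94, 0 and 535 bp in late. Its H3K4me3 covered 1471 and 1572 bp in Hep, 1186 and 743 bp in early, 94 and 248 bp in intermediate, 0, 189 and 0 bp in late and 0 bp in BEC. The late level was lower by a log2 difference of -3.51 (SE 0.53, limma BH-adjusted p = 0.00817), with no overlap of Hep and late. H3K27ac covered 671 and 1091 bp in Hep, 268 and 0 bp in early and 0 bp in the other 7 libraries (limma BH-adjusted p = 0.00165). At Amdhd1, imidazolonepropionase, which acts later in the same route as Hal, the differences were -0.99 for H3K4me3 (limma BH-adjusted p = 0.106) and -1.28 for H3K27ac (limma BH-adjusted p = 0.0419). Urad, an enzyme of urate breakdown (chr5:147321274-147321572), was lower in late cells by -2.30 for H3K4me3 (limma BH-adjusted p = 0.00797). At Cth, cystathionine gamma-lyase, H3K27ac was lower by -2.07 (limma BH-adjusted p = 0.0199).

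At several genes of lipid, drug and energy metabolism H3K27ac was lower in late cells. Lower levels were not particular to genes near gained regions. Hepatocyte function genes and bile acid and xenobiotic genes had no such region at their starts. Of their promoters tested, 16 of 28 and 7 of 17 were called lower for H3K27ac (background 19.5%). For H3K4me3 it was 11 of 28 and 12 of 19 (background 3.07%). At a region near Ak4, a mitochondrial adenylate kinase (chr4:101420318-101420498), H3K27ac covered 816 and 788 bp in Hep, 335 and 190 bp in early, 230 and 106 bp in intermediate and 0 bp in late and BEC (limma BH-adjusted p = 0.000147). The Hep libraries were highest and the 5 late and BEC libraries were listed at 0. At Slc27a2, a fatty acid transporter and acyl-CoA synthetase, H3K27ac covered 347 and 626 bp in Hep and 0 bp in late (limma BH-adjusted p = 0.00804), while H3K4me3 differed by -1.01 (limma BH-adjusted p = 0.223). Mogat1, an acyltransferase of triglyceride synthesis, gained H3K27me3 in 3 of 3 late libraries and had H3K27ac over 255 and 290 bp in Hep and 0 bp in late (limma BH-adjusted p = 0.00589). The region at Ugt1a5, a UDP-glucuronosyltransferase (chr1:88165999-88166232), had H3K4me3 over 473 and 548 bp in Hep and 0 bp in the other 9 libraries, so it entered the fit through Hep alone and no p is given. The Ugt1a genes overlap and share exons, so this region cannot be assigned to Ugt1a5 alone. Its H3K27ac covered 324 and 421 bp in Hep, 429 and 285 bp in early, 233 and 166 bp in intermediate and 0 bp in late and BEC (limma BH-adjusted p = 0.000264), so early cells overlapped with Hep.

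Car3, carbonic anhydrase 3, moved in opposite directions for the acetyl mark and for H3K4me1. H3K27me3 covered 97, 192 and 175 bp in late. H3K27ac covered 614 and 596 bp in Hep, 298 and 392 bp in early, 186 and 135 bp in intermediate, 0, 150 and 0 bp in late and 0 bp in BEC, a log2 difference of -2.38 for late against Hep (limma BH-adjusted p = 0.00293). H3K4me1 covered 0 and 0 bp in Hep, 0 and 322 bp in early, 429 and 601 bp in intermediate, 282, 642 and 314 bp in late and 707 and 361 bp in BEC (limma BH-adjusted p = 0.0278). Each late and BEC library exceeded both Hep libraries in H3K4me1, and Hep exceeded them in H3K27ac.

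At several signalling genes H3K4me3 was lower in late cells. Gabbr2, a subunit of the GABA-B receptor (chr4:46990296-46991152), gained H3K27me3 over 281 and 188 bp in intermediate and 118, 311 and 857 bp in late. H3K4me3 covered 569 and 893 bp in Hep, 193 and 359 bp in early and 0 bp in the other 7 libraries (limma BH-adjusted p = 0.00436), and no library had H3K27ac there. Intermediate libraries carried H3K27me3 and no H3K4me3 at Gabbr2, and early libraries the reverse.

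At Igfbp2, a secreted binding protein of insulin-like growth factors (chr1:72825406-72825638), H3K4me3 covered 1212 and 1262 bp in Hep, 830 and 1199 bp in early, 505 and 924 bp in intermediate, 0, 283 and 216 bp in late and 0 bp in BEC. The late level was lower by -2.54 (SE 0.56, limma BH-adjusted p = 0.0241). Lgr5, the R-spondin receptor of stem cells and pericentral hepatocytes (chr10:115586945-115587142), had 988 and 1083 bp in Hep, 771 and 1107 bp in early, 157 and 466 bp in intermediate, 0, 194 and 120 bp in late and 0 bp in BEC, a difference of -2.61 (SE 0.52, limma BH-adjusted p = 0.019). At Lgr5 early cells overlapped with Hep and at Igfbp2 they lay below it. At both genes late and BEC lay below every earlier library except that intermediate replicate 1 at Lgr5 lay within the late range. Lgr5 also lay 189 bp from H3K27me3 already present in Hep. Chst13, a chondroitin sulfotransferase, had H3K4me3 over 1029 and 1084 bp in Hep, 1164 and 1113 bp in early, 174 and 641 bp in intermediate, 93, 174 and 0 bp in late and 0 bp in BEC (log2 difference -2.73, SE 0.53, limma BH-adjusted p = 0.0174). These H3K4me3 calls, like that of every other gained region, were lost without either Hep replicate.

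**Figure D5:**
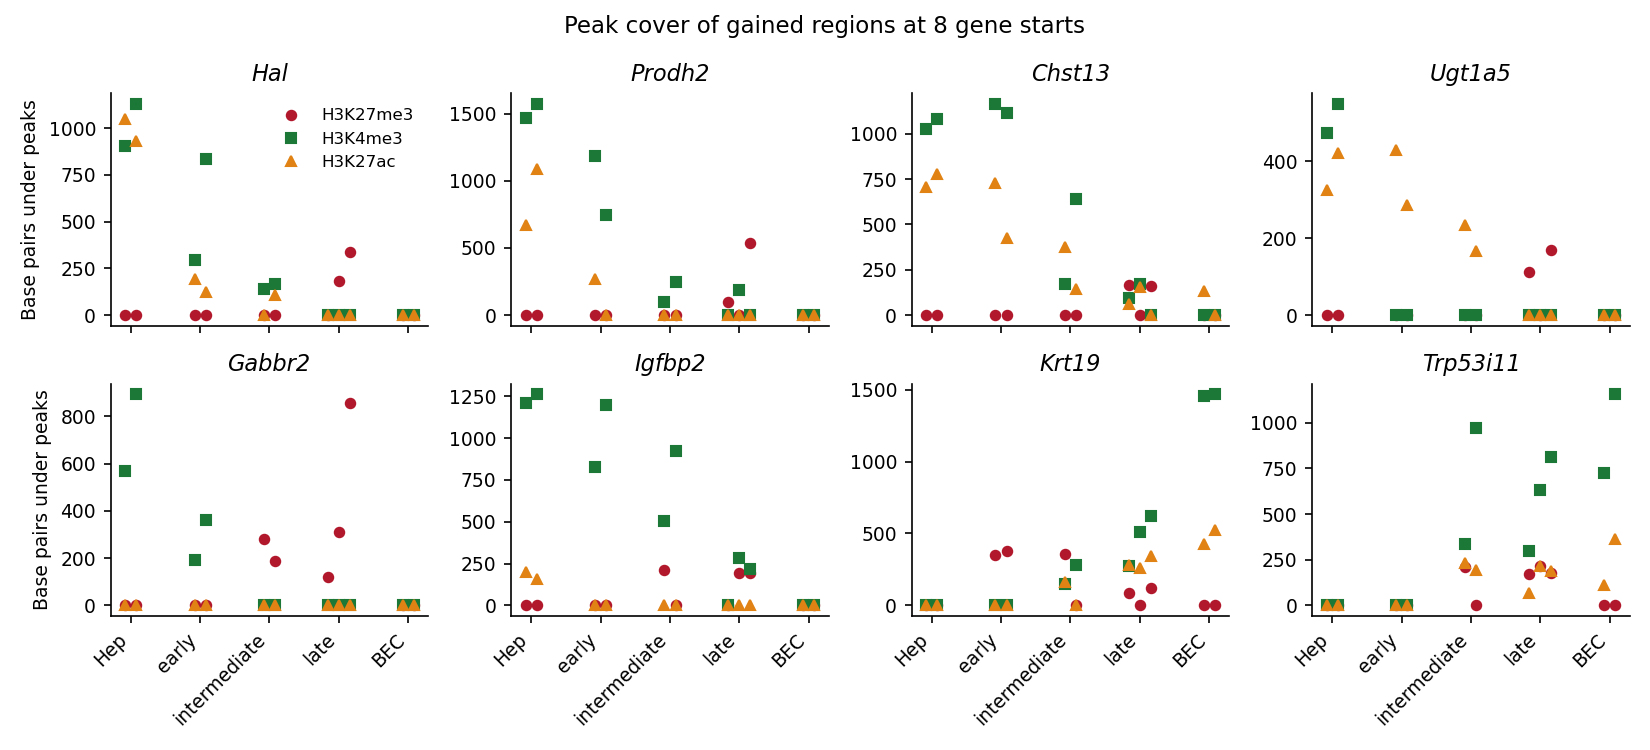
Bases (bp) under peaks of H3K27me3 in the region, and of H3K4me3 and H3K27ac in the region extended by 1000 bp, at 8 gene starts; each point is 1 library, by stage. At Hal, Prodh2 and Gabbr2 H3K4me3 was present in Hep and early and was 0 bp in late and BEC, apart from 189 bp at Prodh2 in late replicate 2; at Krt19 and Trp53i11 it was 0 bp in Hep and early.

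H3K27ac was also lower in late cells at regions inside genes. An intronic region of Gata4 (chr14:63246033-63246222) had H3K27ac over 651 and 620 bp in Hep, 0 and 174 bp in intermediate and 0 bp in early, late and BEC (limma BH-adjusted p = 0.000891), and H3K27me3 over 103, 189 and 0 bp in late. The region at the Gata4 start (chr14:63271481-63271682) had H3K27me3 over 131 and 126 bp in intermediate and 118, 202 and 143 bp in late, lay 418 bp from a Hep peak of the mark, and had neither H3K4me3 nor H3K27ac. A region in Ttc39c (chr18:12635066-12635234) had H3K27ac over 915 and 927 bp in Hep, 198 and 139 bp in early and 0 bp in late (limma BH-adjusted p = 5.68e-05). At Esrrg, an orphan nuclear receptor, H3K27ac covered 613 and 659 bp in Hep and 0 bp in late (limma BH-adjusted p = 0.000349). The region 902 bp from the start of Jph1, a junctophilin, had 604 and 616 bp in Hep and 0 bp in the other 9 libraries, so it entered the fit through Hep alone and no p is given, while its H3K4me3 differed by -1.25 (limma BH-adjusted p = 0.207).

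A smaller group had more active mark in late cells although H3K27me3 had appeared. At Krt19, a keratin of bile duct cells (chr11:100144818-100145478), H3K27me3 covered 348 and 376 bp in early, 360 and 0 bp in intermediate, 88, 0 and 118 bp in late and 0 bp in BEC. The early libraries thus had more than any late library. H3K4me3 covered 0 bp in Hep and early, 145 and 279 bp in intermediate, 273, 509 and 619 bp in late and 1458 and 1468 bp in BEC (limma BH-adjusted p = 0.00968). H3K27ac covered 0 bp in Hep and early, 165 and 0 bp in intermediate, 283, 259 and 346 bp in late and 429 and 526 bp in BEC (limma BH-adjusted p = 0.00478). Both active marks were listed at 0 in Hep and early, and BEC lay above every late library.

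At Trp53i11, a p53-inducible gene (chr2:93187375-93187691), H3K27me3 covered 208 and 0 bp in intermediate and 169, 215 and 177 bp in late. H3K4me3 covered 0 bp in Hep and early, 336 and 973 bp in intermediate, 300, 634 and 814 bp in late and 724 and 1157 bp in BEC (limma BH-adjusted p = 0.0151). Intermediate, late and BEC overlapped and Hep and early were at 0. H3K4me3 was also higher in late cells at Igsf9b, a cell adhesion gene, with 205, 406 and 647 bp in late and 0 bp in Hep (limma BH-adjusted p = 0.0197). Nrg2, a neuregulin, had 149, 491 and 563 bp in late and 0 bp in Hep (limma BH-adjusted p = 0.0442). In Lamb1, a laminin chain of basement membrane, H3K27ac covered 203, 219 and 265 bp in late and 596 and 938 bp in BEC, against 0 bp in Hep (limma BH-adjusted p = 0.00768). All 3 genes were listed at 0 in Hep for the mark named. Grhl2, an epithelial transcription factor, had H3K4me3 over 0, 610 and 419 bp in late and 1016 and 719 bp in BEC against 0 bp in Hep, and did not pass (limma BH-adjusted p = 0.218).

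Counted by promoter, within 2500 bp of the start, 101 genes near gained regions entered the H3K27ac fit, of which 45 were called, 38 lower in late cells and 7 higher, against backgrounds of 24%, 19.5% and 4.5% among 12567. For H3K4me3, 257 genes entered, of which 31 were called, 16 lower and 15 higher, against 6.4%, 3.07% and 3.32% among 13476. A promoter with peaks in the Hep libraries and in no other entered through Hep alone here too. The number of such promoters is not given, so these counts are a description of the promoters that passed. The median fitted differences were -0.82 for H3K27ac, against -0.81 over all promoters tested, and 0.59 for H3K4me3, against -0.66. The H3K27ac count was 4 without Hep replicate 1 and 3 without Hep replicate 2. The H3K4me3 count was 7 and 6 without these, 67 without late replicate 1 and 16 without late replicate 3.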

How the data were processed

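The 44 libraries came from a CUT&Tag-type assay with Tn5, per the labels' protocols. Bowtie2, Picard, deepTools, MACS2 and mm10 are named in the submitters' processing notes, without versions or roles. The authors deposited 1 list of peaks for each library with a score for each peak. The definition of the score and the authors' filter were not given in the sources used here. Scores served for ranking inside each deposited list alone. Of 1341191 peaks, 1210 (0.0902%) on other contigs were left out.

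Overlapping peaks of the 11 H3K27me3 lists were merged, and the bases under peaks of each mark were counted in each region, in the region extended by 1000 bp and within 2500 bp of promoters. Values of log2(bp + 100) were fitted with limma 3.58.1 (R 4.3.3), without scaling between libraries, over all 11 libraries, or over the 6 early, intermediate and BEC libraries for H3K27me3. In the fits over 11 libraries, features with peaks in at least 2 libraries were fitted. In the H3K27me3 fit, regions with a peak in any of the 6 libraries were fitted. Features without spread inside any stage were left out. P-values were adjusted by Benjamini-Hochberg over all features tested, with a threshold of 0.05. The fits were tested on simulated data.

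Genes are the 21887 protein-coding genes of RefSeq on GRCm38.p6. For 17492 the table used lists the start. For the other 4395 both gene ends were candidates, and the one with most H3K4me3 was taken as the promoter. The members and gene lists were chosen with earlier results of these data known. Named genes are those with the widest late coverage, those with active marks in Hep, members of the gene lists and those that passed the late against Hep test. Samples were grouped by the labelled stage. Alternatives were other offsets, quantile normalization, no filter, other windows, equal peak numbers, a replicate block and leaving out each library, and, chosen after seeing the data, peaks of one width.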

Additional observations from a re-analysis of the deposited data

How the results depend on the processing

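The rule with a peak in 3 of 3 late libraries gave 446 regions and H3K27ac in both Hep libraries at 1.12% of them. With equal peak numbers in each H3K27me3 list (2343), there were 684 regions, of which 1.46% had H3K4me3, 1.61% H3K27ac and 6.73% H3K4me1. With equal peak numbers of the other mark, H3K27ac was at 1.49% and H3K4me1 at 0.623%, and with peaks within 1000 bp joined H3K4me1 was at 5.90%. Leaving out one library each, the number of regions was 730 to 4374, and the share with H3K4me3 was 1.91 to 3.72%, with H3K27ac 1.38 to 2.92% and with H3K4me1 3.98 to 6.13%. For late against Hep, 58 gained regions were called for H3K4me3 with an offset of 10 bp (43 higher, 15 lower), 18 with 1000 bp (1 higher, 17 lower), 64 with quantile normalization and 60 with peaks of one width (300 bp), the last chosen after seeing the data. For H3K27ac, 34 were called without extension, 42 with equal peak numbers and 38 with one width. For H3K4me1 the counts were 26 with quantile normalization (10 higher, 16 lower), 40 without extension, 20 with equal peak numbers and 13 with one width. With the replicate block the counts were 20 for H3K4me3 (5 higher, 15 lower), 46 for H3K4me1, 6 for H3K27me3 in BEC against early and 25 for H3K27ac at promoters. Deviations from the stage mean correlated between -0.18 and 0.21 for same-numbered libraries of different stages. For differently numbered ones the range was -0.21 to 0.20. In a stage with 2 libraries the deviations mirror each other, so the ranges are not independent. The ranges are pooled over the 4 marks. For H3K4me3 alone they were -0.016 to 0.21 and -0.21 to 0.11, and for H3K27ac -0.085 to 0.028 and -0.051 to 0.085. Both pooled ranges held both signs, and the numbers were not taken to pair the samples. Leaving out one library each gave H3K4me3 counts of 0 to 93, H3K27ac counts of 22 to 69 and H3K4me1 counts of 0 to 103, and at promoters H3K4me3 counts of 6 to 67 and H3K27ac counts of 3 to 49; without 1 Hep library the other is assumed to vary like the other stages. Promoter counts were 17 for H3K4me3 within 1000 bp and 20 for H3K27ac with one width. The causes of these changes were not tested, apart from fewer samples where a library was left out. Of the single named calls, 8 held and 35 were lost without Hep replicate 1, and as many without Hep replicate 2; no call reversed. Read depth was unknown.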

Other observations

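A region between the imprinted genes Dlk1 and Meg3 had H3K27me3 in each late library and in no other (chr12:109527493-109527715, 135, 184 and 154 bp). It lay inside the long non-coding gene Gm34081, 64157 bp from Dlk1 and 13281 bp from Meg3. H3K27ac around it covered 157 and 262 bp in Hep and 0 bp in late (limma BH-adjusted p = 0.00598). Dlk1 itself had 5 of the gained regions, and the 2 loci were not joined by the 10000 bp rule.

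The promoter of Nr1i3, the xenobiotic receptor CAR, was not near a gained region, since H3K27me3 was found there in late replicate 3 (268 bp) and BEC replicate 1 (221 bp) only. Its H3K4me3 covered 1504 and 1319 bp in Hep, 1286 and 1273 bp in early and 0 bp in the other 7 libraries (limma BH-adjusted p = 0.000136). H3K27ac covered 1136 and 1109 bp in Hep and 0, 128 and 0 bp in late, a log2 difference of -3.22 (limma BH-adjusted p = 0.00342).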
